A study of Mus musculus with 21 samples.

Results

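Cortex of 4 mice that expressed wild-type human TDP-43 was compared with cortex of 8 nontransgenic mice, 12 of the 21 mice in the series, each measured on its own Affymetrix MOE430A 2.0 array. The arrays were chosen by their titles, tTA/TDP-WT against Non-transgenic, and 12393 genes were read through 1 probe set each. The WT bigenic mice, 1 male and 3 females of line WT12, carried both the TDP-43 transgene and the transgene for tTA, the doxycycline-controlled transactivator that drives it. The other groups were 5 dNLS bigenic mice of line NLS4, whose TDP-43 has a defective nuclear localization signal and whose tTA is also present, 4 dNLS monogenic mice of line NLS4 with the TDP-43 transgene and no tTA, and the nontransgenic mice, which had neither. Of the nontransgenic mice, 6 came from line NLS4 (4 males and 2 females by label) and 2 females from line WT12. All 21 mice had a mixed C57BL/6J x C3HeJ background and had been off doxycycline for 2 weeks. No ages are given in the labels. As background from the published model, tTA is expressed under the Camk2a promoter, which is active mainly in forebrain excitatory neurons, while the tissue measured was whole cortex. No group carried tTA alone, so effects of tTA and of TDP-43 cannot be told apart in this comparison, and each transgene was represented by 1 line.

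TDP-43 is an RNA-binding protein of the nucleus that recognizes UG-rich RNA, regulates splicing and RNA stability, and represses its own mRNA through the untranslated region at the 3' end. Its loss from the nucleus and deposition in the cytoplasm mark most cases of amyotrophic lateral sclerosis and many of frontotemporal dementia. Raised levels of the wild-type protein are themselves harmful to neurons in several animal models.

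Values are log2 levels as deposited. Their lowest value, 2.04, was shared by all arrays and took in 30.7% to 32.4% of each array's probe sets. The pan-neuronal markers averaged 11.99 to 12.13 in WT bigenic and 11.39 to 12.24 in nontransgenic arrays. Striatal markers, which a cortical dissection can carry over, averaged 7.73 to 9.24 in WT bigenic and 7.03 to 9.58 in nontransgenic arrays. The 3' minus 5' difference of the beta-actin control probe sets, which grows as RNA is degraded or copied short, was 1.37 to 1.43 in WT bigenic arrays and 1.46 to 8.20 in nontransgenic arrays, with no overlap (two-sided exact permutation p = 0.115, adjusted p = 0.168, and p = 0.0381 without nontransgenic 4 and 6, the arrays of largest difference). The same difference for Gapdh was 0.797 to 0.807 in WT bigenic and 0.791 to 5.04 in nontransgenic arrays (exact permutation p = 0.168, adjusted p = 0.168). The beta-actin difference was thus smaller in each WT bigenic array than in any nontransgenic array, and its part in the results was not tested beyond the fits with the beta-actin difference as a covariate and without those 2 arrays. Xist and Y-linked genes followed the labelled sex of all 12 mice except nontransgenic 1, labelled male and read as female. WT bigenic 3 stood apart from the other WT bigenic arrays in glial and interferon genes, as given below.

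The targeted gene was read first. The 4 probe sets of mouse Tardbp gave no change past the threshold in WT bigenic cortex, and the files do not say which of them, if any, also read the human transgene. The probe set of highest mean lay at 11.12, 11.09, 10.93 and 11.07 in WT bigenic arrays, against a lowest, median and highest value of 10.89, 11.13 and 11.31 in nontransgenic arrays. The groups overlapped, and the fitted difference was -0.05 ± 0.07 (SE, limma adjusted p = 0.872 over every probe set). The second brightest lay at 10.76, 10.63, 10.45 and 10.68 in WT bigenic arrays, against 10.60, 10.82 and 11.07. Its difference was -0.21 ± 0.09 (limma adjusted p = 0.243). The dimmest lay at 5.94, 5.94, 6.56 and 6.11 in WT bigenic arrays, against 5.10, 5.52 and 5.99 in nontransgenic arrays, a difference of 0.48 ± 0.20 (limma adjusted p = 0.211). The remaining set differed by 0.01 (limma adjusted p = 1). These arrays therefore gave no measure of how much TDP-43 the transgene added. Set against dNLS bigenic cortex in a direct comparison, the second brightest set was higher in WT bigenic cortex, at 10.63 ± 0.13 (SD, n = 4) against 9.53 ± 0.09 (n = 5), a difference of 1.11 ± 0.10 (SE, limma adjusted p = 3.5e-06).

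**Figure D1:**
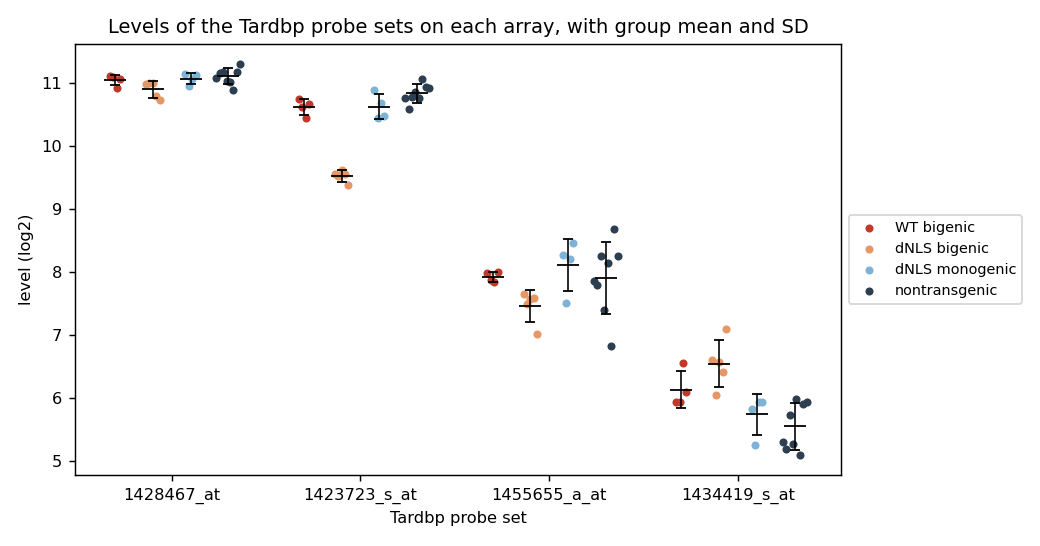
Level (log2) of the 4 probe sets of Tardbp on each array, by group, with the mean and SD of each group drawn over the points. WT bigenic and nontransgenic points overlap in each set, while the dNLS bigenic points of the second brightest set lie between 9.38 and 9.62, below all other groups.

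Across all genes, 276 of 12393 (2.23%) differed between WT bigenic and nontransgenic cortex at a limma adjusted p under 0.05, 85 of them higher (0.686%) and 191 lower (1.54%) in WT bigenic mice. Lower genes made up 69.2% of the calls, and this share changed with the fit. It was 85.5% of 152 calls with arrays centred on their medians and 64.4% of 163 with the beta-actin difference as a covariate. It was 62.7% of 424 without nontransgenic 4 and 6, and 59.6% of 57 against the line WT12 controls. Without WT bigenic 3 it was 55.3% of 38, and against dNLS monogenic mice 0 of 3 calls were lower. Most changes were small. The median size among the 276 was 0.42 log2 units, 47 were under 0.25 and 35 were at least 2-fold, 31 lower and 4 higher. In 219 of the 276 genes all 4 WT bigenic arrays lay outside the range of the 8 nontransgenic arrays, 63 of them above and 156 below it. Of all genes tested, 5.25% had that pattern, 1.92% above and 3.33% below. In 197 they also lay outside the range of the 4 dNLS monogenic arrays, against 4.04% of all genes.

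The number of calls rested on the fit. At an unadjusted p under 0.05, 7.56% of all genes were higher and 10.9% lower. The fit across all 21 arrays takes its spread from all 4 groups. A fit to the 12 arrays alone called 0 genes (1547 at an unadjusted p under 0.05, against 2292 across 21 arrays), and 4 once nontransgenic 4 and 6 were also left out. With sex as read from Xist there were 413 calls, without nontransgenic 4 and 6 there were 424, and with the beta-actin difference as a covariate 163. Of the 276 calls of the main fit, 113 were kept with the covariate and 229 without nontransgenic 4 and 6. Against the 2 nontransgenic mice of line WT12 alone, 57 genes passed, and against the 4 dNLS monogenic mice 3 passed (0.0242%), namely Nt5dc2, Magi1 and Gadd45g (the first of these near the lowest value, at 2.38 to 2.97 in WT bigenic arrays), with 863 at an unadjusted p under 0.05. Without WT bigenic 1, 2, 3 or 4 the counts were 37, 60, 38 and 116. Without nontransgenic 2, 5 or 7 they were 182, 579 and 139, and without the other nontransgenic arrays 212 to 378. Of the calls, the naming rule took 51 genes. They kept their direction in each of these fits. Of the 51, 26 passed with the beta-actin covariate and 42 without nontransgenic 4 and 6. Nontransgenic 6, the array of largest beta-actin difference, was the highest nontransgenic array for Susd2, Otof, Trpc6, Cdh9, Pcdh20, Slc17a6, Reln and Nova1. It was not the highest for Ncapg2 or Pisd-ps3. Among increases it was the lowest for Fcgr1, Fcgr3, Nop14 and Psmg3, but not for Rpf1, Id1 or Gadd45g. Of these genes, Nova1 and Fcgr3 did not pass without nontransgenic 4 and 6. Against the line WT12 controls 5 of the 51 passed, namely Grik1, Cycs, Cox6a1, Psmc3 and Psmg3. In all 12 fits that left out 1 array, 9 passed. Those 9 were Susd2, Trpc6, Pisd-ps3, Pcdh20, Slc17a6 and Reln, all lower, and Rpf1, Fxyd1 and Blvrb, all higher in WT bigenic cortex. None of the 9 passed against the line WT12 controls, with limma adjusted p from 0.0598 (Rpf1) to 0.195 (Fxyd1).

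**Figure D2:**
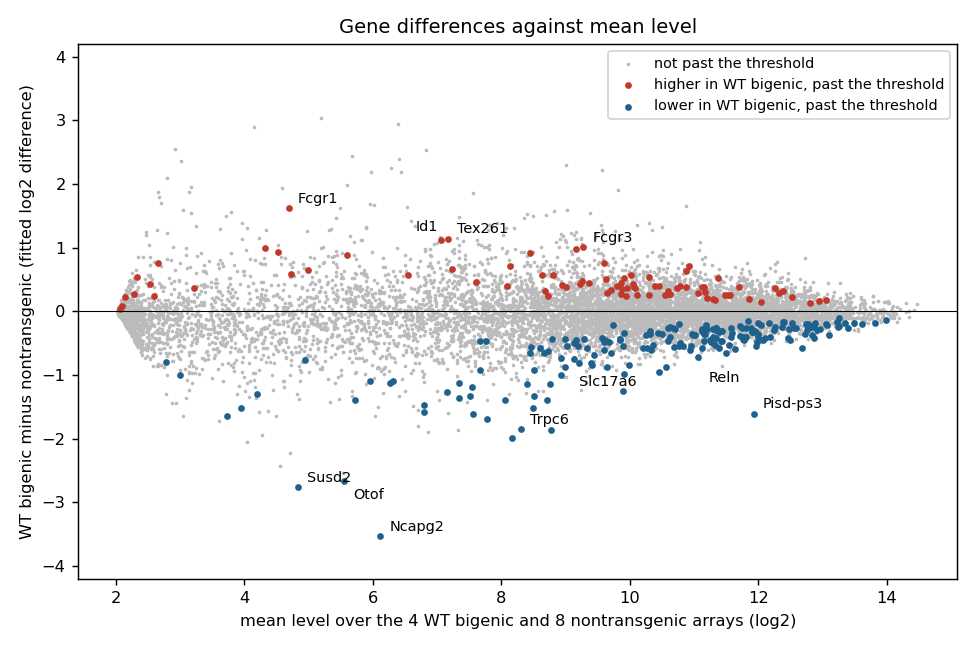
Fitted log2 difference, WT bigenic minus nontransgenic, against the mean log2 level over the 12 arrays, for each of 12393 genes. The 191 genes called lower reach -3.53 and the 85 called higher reach 1.62, and uncalled genes spread as widely at low and middle levels.

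The largest decrease among called genes was that of Ncapg2, a subunit of the condensin II complex that compacts chromosomes. It lay at 2.90, 5.53, 3.46 and 2.98 in WT bigenic arrays, against 6.63, 7.17 and 8.48 in nontransgenic arrays (lowest, median and highest). All 4 WT bigenic arrays were below all 8 nontransgenic arrays, and the fitted difference was -3.53 ± 0.59 (SE, limma adjusted p = 0.0133, and 0.0610 without WT bigenic 1). As general knowledge, Ncapg2 lies in a region of chromosome 12 where the Camk2a-tTA transgene is reported to have inserted. Of 2 other genes of that region, Ptprn2 did not pass (-0.43 ± 0.25, limma adjusted p = 0.381) and Vipr2 was at the lowest value on all arrays. In dNLS bigenic arrays, which also carry tTA, Ncapg2 ranged from 4.38 to 6.98, and the difference between WT and dNLS bigenic cortex, -1.99 ± 0.68, did not pass (limma adjusted p = 0.0752).

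The next decreases described are of membrane proteins. Susd2, a membrane protein with a sushi domain, lay at 2.92, 3.10, 2.46 and 3.30 in WT bigenic arrays, against 4.66, 5.83 and 7.31 in nontransgenic arrays. The groups did not overlap, and Susd2 fell by 2.76 ± 0.42 on the log2 scale (SE, limma adjusted p = 0.0112). Against dNLS bigenic cortex, where Susd2 lay between 2.09 and 2.35, the difference of 0.86 ± 0.48 did not pass (limma adjusted p = 0.348). Otof, the calcium sensor otoferlin known for vesicle release in inner hair cells, lay at 2.80, 3.96, 3.25 and 5.12 in WT bigenic arrays, against 5.11, 6.42 and 8.47. WT bigenic 4 overlapped the lowest nontransgenic array, and the difference was -2.66 ± 0.54 (limma adjusted p = 0.0244, and up to 0.114 without WT bigenic 1, 2 or 3). Trpc6, a cation channel opened by diacylglycerol, was at 7.31, 7.13, 6.72 and 7.14 in WT bigenic arrays and between 8.21 and 9.80, with a median of 8.84, in nontransgenic arrays. It fell by 1.85 ± 0.29 (limma adjusted p = 0.0116).

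The adhesion molecules Cdh9 and Pcdh20 fell as well. Cdh9, a cadherin that guides the choice of synaptic partners, lay at 7.42, 6.71, 5.82 and 6.76 in WT bigenic arrays, against 7.495, 8.41 and 9.20 in nontransgenic arrays, and fell by 1.69 ± 0.31 (SE, limma adjusted p = 0.0181, and 0.0663 without WT bigenic 3). Pcdh20, a protocadherin, lay at 8.24, 7.97, 7.39 and 7.58 in WT bigenic arrays, against 8.60, 9.17 and 9.94, and fell by 1.39 ± 0.23 (limma adjusted p = 0.0133). In both genes all 4 WT bigenic arrays were below all nontransgenic arrays. Smoc2, a secreted calcium-binding matrix protein, differed by -1.47 ± 0.28 (limma adjusted p = 0.0198, and up to 0.0854 without WT bigenic 1 or 3). Rgs16, which shortens signalling by G proteins, differed by -1.57 ± 0.28 (limma adjusted p = 0.0159, and up to 0.0560 without WT bigenic 1 or 3). The remaining large decreases among called genes were Ngb (neuroglobin, -1.64), Myh7 (a myosin heavy chain, -1.86), Lipg (endothelial lipase, -1.60), Gask1b (-1.52) and the predicted genes Gm29722 (-1.99) and Gm19531 (-1.52). Their limma adjusted p lay between 0.0277 and 0.0440, and each lost its call in 3 to 8 of the 12 fits that left out 1 array, with WT bigenic 2 and 3 among those arrays for all 6. Against the 2 nontransgenic mice of line WT12 alone, the differences were smaller for Smoc2 (-0.73, limma adjusted p = 0.369), Ngb (-0.94, limma adjusted p = 0.266), Myh7 (-0.71, limma adjusted p = 0.718) and Gm19531 (-0.39, limma adjusted p = 0.430).

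Pisd-ps3, a pseudogene copy of the gene for phosphatidylserine decarboxylase, lay at 10.69, 10.89, 10.24 and 11.62 in WT bigenic arrays, against 11.88, 12.42 and 12.97 in nontransgenic arrays. It fell by 1.61 ± 0.22 (SE, limma adjusted p = 0.00814). It was also lower than in dNLS bigenic cortex, by a difference of -1.28 (limma adjusted p = 0.00304). The 5 other probe sets that read Pisd-ps3, alone or with Pisd-ps1 or Pisd, gave -1.32 to -2.24, all past the threshold over every probe set. The copies are near-identical, so the level of each one is uncertain.

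Among genes that identify cortical cell types, few passed. Slc17a6, the vesicular glutamate transporter VGLUT2, lay at 9.82, 9.87, 9.46 and 10.14 in WT bigenic arrays, against 10.46, 10.71 and 11.23 in nontransgenic arrays. All 4 WT bigenic arrays were below all nontransgenic arrays, and Slc17a6 fell by 0.95 ± 0.14 (SE, limma adjusted p = 0.0106). It stayed above dNLS bigenic cortex, where it lay between 8.93 and 9.46, by 0.59 (limma adjusted p = 0.0257). Slc17a6 alone of 10 excitatory neuron markers passed the threshold, beside 2.23% of all genes. The median of the 10 was -0.15, beside 0 for all genes. Reln, the secreted glycoprotein that orders cortical layers and is made by interneurons in adult cortex, lay at 10.68, 10.48, 10.43 and 10.77 in WT bigenic arrays, against 11.10, 11.21 and 11.58 in nontransgenic arrays. It fell by 0.72 ± 0.12 (limma adjusted p = 0.0116), again with no overlap, and was 1 of 18 interneuron markers to pass.

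The upper-layer markers Calb1, a calcium buffer, and Lamp5 fell slightly, by 0.30 ± 0.06 (SE, limma adjusted p = 0.0181) and 0.27 ± 0.07 (limma adjusted p = 0.0483). Calb1 lost its call without WT bigenic 1, 2 or 3 (limma adjusted p up to 0.0676) and Lamp5 in 9 of the 12 fits that left out 1 array (up to 0.167). Both were higher than in dNLS bigenic cortex, by 0.59 ± 0.06 and 1.06 ± 0.08 (limma adjusted p = 1.7e-05 and 5.4e-07). Calb1 lay at 12.59, 12.48, 12.48 and 12.67 in WT bigenic arrays, between 11.87 and 12.01 in dNLS bigenic arrays, and between 12.69 and 12.99 in nontransgenic arrays. No gene passed among 14 pan-neuronal, 9 deep-layer, 12 astrocyte or 9 oligodendrocyte markers, beside 2.23% of all genes. The same held for 5 oligodendrocyte precursor and 14 endothelial and mural markers. At that share lists this short hold few or no calls, so the absence of calls does not show unchanged levels. All 5 oligodendrocyte precursor genes were below 0, with a median of -0.33. Of them, 2 were lower and 0 higher at an unadjusted limma p under 0.05, beside 10.9% lower among all genes. Of the 53 lists, 18 held a call and 35 held none, and single calls outside the lists described here were Ranbp2 (-0.35) of 23 nuclear transport genes and Kif3a (0.27) of 34 cytoskeleton and axonal transport genes. In whole tissue, fewer cells of a type and less RNA per cell cannot be told apart.

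**Figure D3:**
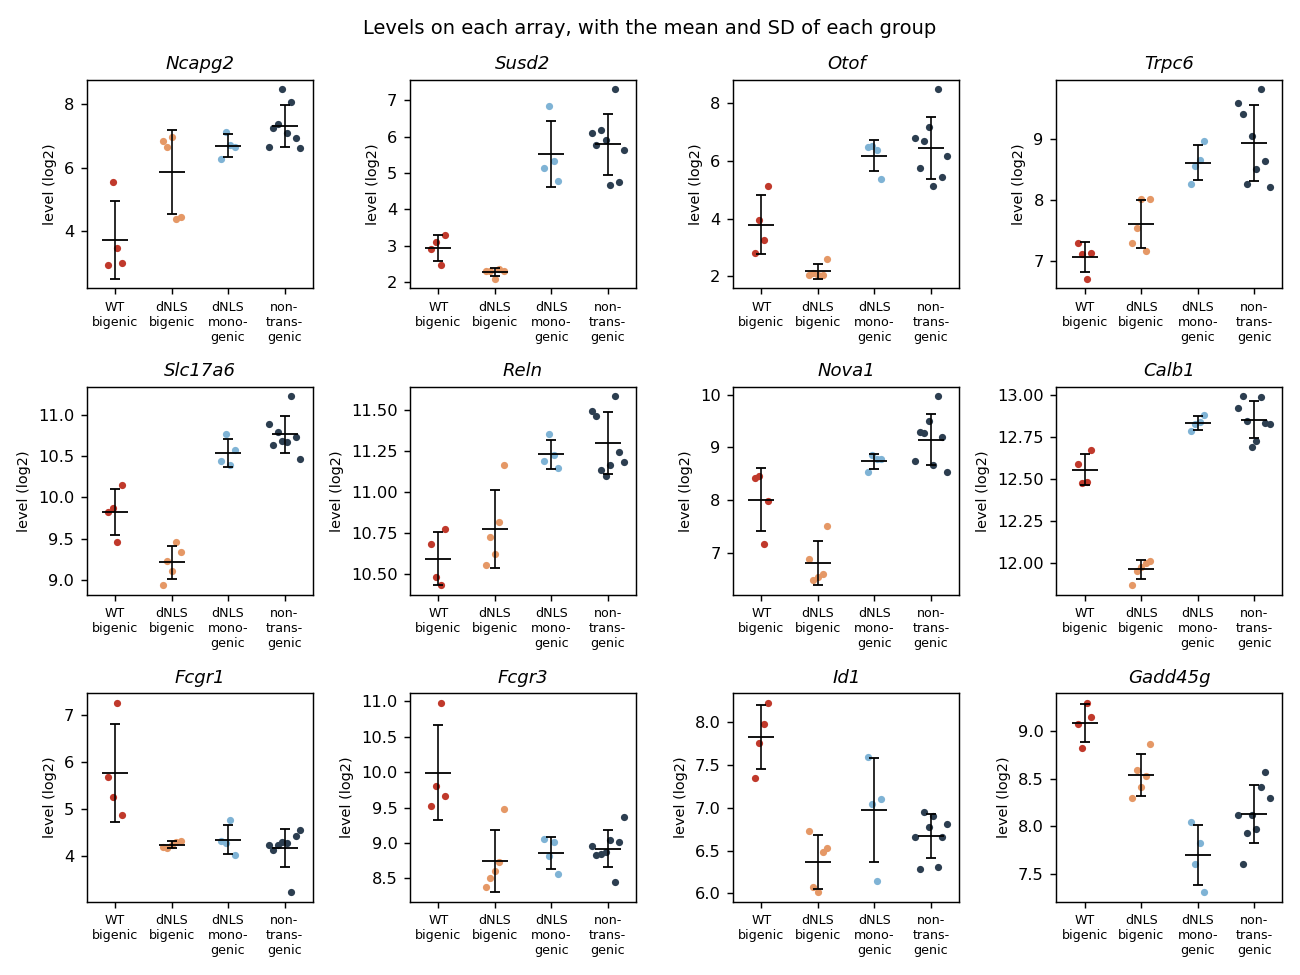
Level (log2) of 12 genes on each array in WT bigenic, dNLS bigenic, dNLS monogenic and nontransgenic cortex, with the mean and SD of each group. By group mean, Slc17a6, Nova1 and Calb1 in WT bigenic cortex lie between dNLS bigenic and nontransgenic cortex, whereas Fcgr1, Fcgr3 and Id1 are highest in WT bigenic cortex. Single arrays overlap for Nova1, where WT bigenic 3 (7.17) lies within the dNLS bigenic range of 6.48 to 7.51. They also overlap for Id1, where WT bigenic 1 (7.35) lies below the dNLS monogenic maximum of 7.60.

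Several genes for RNA-binding proteins other than TDP-43 were lower. Of 36 measured, 5 were lower and 0 higher past the threshold (13.9%, beside 1.54% lower among all genes), and the median of the list was -0.08, beside 0. Nova1, a splicing factor of neurons, lay at 8.42, 8.45, 7.17 and 7.98 in WT bigenic arrays, against 8.54, 9.23 and 9.97 in nontransgenic arrays, and differed by -1.15 ± 0.28 (SE, limma adjusted p = 0.0451). It was higher than in dNLS bigenic cortex by 1.18 ± 0.33 (limma adjusted p = 0.0269). The others were Celf4 at -0.42 ± 0.11, Tia1, a stress granule protein, at -0.40 ± 0.10, Matr3, mutated in some families with amyotrophic lateral sclerosis, at -0.29 ± 0.07, and Elavl2, named after its values were seen, at -0.19 ± 0.04. Their limma adjusted p lay between 0.0332 and 0.0491. Other probe sets of Celf4 gave -0.45 (limma adjusted p = 4.5e-04 over every probe set) and 0.14 (0.859), and another of Nova1 gave -0.09 (limma adjusted p = 1). The count of 5 became 0 without any 1 of the 4 WT bigenic arrays and 0 with the beta-actin covariate, and was 3 without nontransgenic 4 and 6, 1 with arrays centred on their medians and 2 after quantile normalization. Lower calls among all 12393 genes, 191 in the main fit, also changed. They were 23, 36, 21 and 69 without WT bigenic 1, 2, 3 and 4, and 105 with the covariate. In the last 3 of those fits they were 266, 130 and 144. RNA-binding genes averaged 11.80, 11.77, 11.69 and 11.77 in WT bigenic arrays and 11.67 to 11.90 in nontransgenic arrays, with nontransgenic 6, the array of largest 3' bias, the lowest. Of 24 genes whose splicing or level is known to depend on TDP-43, 0 passed in limma and 5 were lower and 0 higher at an unadjusted p under 0.05, beside 10.9% lower among all genes. The lowest adjusted p among them was that of Ran, the GTPase of nuclear transport, at -0.29 ± 0.07 (limma adjusted p = 0.0539), named after its values were seen. Array probe sets do not separate most splice forms.

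Of genes for excitability and neuropeptides, 1 member fell in each of 3 lists, beside 1.54% lower among all genes, and 0 of 8 GABA receptor and 0 of 25 synaptic vesicle genes passed. Grik1, a kainate receptor subunit, differed by -0.55 ± 0.12 (SE, limma adjusted p = 0.0314) and was 1 of 19 glutamate receptor and postsynaptic genes to pass. Kcnma1, the large-conductance calcium-activated potassium channel, lay at 11.21, 11.16, 10.91 and 11.15 in WT bigenic arrays, against 11.35, 11.54 and 11.90 in nontransgenic arrays, and differed by -0.47 ± 0.09 (limma adjusted p = 0.0181). It was 1 of 29 voltage-gated channel genes to pass, and a second probe set of it gave 1.02 (limma adjusted p = 0.545 over every probe set). Adcyap1, the neuropeptide PACAP, lay at 8.52, 8.89, 8.62 and 8.65 in WT bigenic arrays, between 8.96 and 10.10 in dNLS bigenic arrays, and at 9.11, 9.54 and 9.77 in nontransgenic arrays. It fell by 0.81 ± 0.20 (limma adjusted p = 0.0426), was also below dNLS bigenic cortex (-0.95, limma adjusted p = 0.0107), and was 1 of 21 neuropeptide genes to pass. Without 1 array, the limma adjusted p reached 0.119 for Grik1 (lost without WT bigenic 1, 2 or 3 or nontransgenic 7), 0.0756 for Kcnma1 (lost without WT bigenic 1 or 3) and 0.162 for Adcyap1 (lost in 8 of the 12 fits). Against the line WT12 controls alone, Adcyap1 differed by -0.53 (limma adjusted p = 0.524) and Grik1 by -0.80 (limma adjusted p = 0.0394).

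The endoplasmic reticulum chaperones Hsp90b1 and Calr were both lower. Hsp90b1 lay at 11.77, 11.71, 11.67 and 11.76 in WT bigenic arrays, against 11.87, 12.28 and 12.67 in nontransgenic arrays (-0.45 ± 0.11 SE, limma adjusted p = 0.0354), and Calr differed by -0.21 ± 0.05 (limma adjusted p = 0.0312). They were 2 of 21 genes of the integrated and endoplasmic reticulum stress list, with none higher, beside 1.54% lower among all genes. Both lost their calls without any one of the 4 WT bigenic arrays, Hsp90b1 also without nontransgenic 2 and Calr without nontransgenic 7, with limma adjusted p up to 0.145 and 0.123. A second probe set of Hsp90b1 gave 0.21 (limma adjusted p = 0.566 over every probe set), while both others of Calr were lower past the threshold. Against the line WT12 controls alone, Hsp90b1 differed by -0.27 (limma adjusted p = 0.149).

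The largest increase among called genes was that of Fcgr1, and Fcgr3 was also higher. Both encode Fc receptors, with which microglia and other myeloid cells bind immunoglobulin G. Fcgr1, the high-affinity receptor, lay at 5.68, 5.25, 7.26 and 4.86 in WT bigenic arrays, against 3.22, 4.25 and 4.54 in nontransgenic arrays. Fcgr3, a low-affinity receptor, lay at 9.53, 9.80, 10.98 and 9.66 in WT bigenic arrays, against 8.45, 8.92 and 9.37 in nontransgenic arrays. In both genes all 4 WT bigenic arrays were above all nontransgenic arrays, and WT bigenic 3 was the highest. Fcgr1 rose by 1.62 ± 0.33 (SE, limma adjusted p = 0.0260) and Fcgr3 by 1.01 ± 0.24 (limma adjusted p = 0.0390). Without WT bigenic 3 the differences were 1.13 (limma adjusted p = 0.0472) and 0.71 (limma adjusted p = 0.124). Fcgr1 lost its call without WT bigenic 1 (limma adjusted p = 0.0757), and Fcgr3 lost its call without WT bigenic 1 or 2 or nontransgenic 2, 3 or 7 as well. Both were higher in WT bigenic than in dNLS bigenic cortex, by 1.57 ± 0.39 and 1.11 ± 0.28 (limma adjusted p = 0.0130 and 0.0141).

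The promoters of these 2 genes, from 250 bases before to 50 after the start of transcription in RefSeq (GRCm38.p6), are shown because the genes moved together. The capitals mark the longest stretch that both share, which was searched for after the genes were chosen.
Fcgr1, chr3:96293920-96294219, minus strand: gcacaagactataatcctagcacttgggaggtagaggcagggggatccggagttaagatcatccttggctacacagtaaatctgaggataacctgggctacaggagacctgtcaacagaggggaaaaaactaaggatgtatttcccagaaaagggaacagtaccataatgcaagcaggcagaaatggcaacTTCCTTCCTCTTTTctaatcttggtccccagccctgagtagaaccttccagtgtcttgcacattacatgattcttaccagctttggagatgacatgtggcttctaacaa
Fcgr3, chr1:171059354-171059653, minus strand: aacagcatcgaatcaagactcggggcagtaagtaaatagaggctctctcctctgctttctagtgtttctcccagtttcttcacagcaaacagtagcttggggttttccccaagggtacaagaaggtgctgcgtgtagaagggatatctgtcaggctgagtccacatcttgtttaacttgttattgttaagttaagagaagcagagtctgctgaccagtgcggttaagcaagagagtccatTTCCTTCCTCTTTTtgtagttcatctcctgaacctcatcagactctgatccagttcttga
The shared stretch is 14 bases long and was present, on either strand, in 3 of the 9887 promoters matched to tested genes (0.0303%), those of Fcgr1, Fcgr3 and Dock2. Dock2 did not pass (-0.63 ± 0.76 SE, limma adjusted p = 0.756). The part ttcctc of the shared stretch, with gaggaa on the other strand, was present in 37.7% of the 69 matched promoters of genes called higher. It was in 21.9% of the 151 of genes called lower and 27.3% of all 9887. Fcgr1 and Fcgr3 are among the 69 and hold ttcctc as part of that stretch. The share among genes called higher was thus partly fixed in advance, and its excess was not tested. The repeat tgtgtg, with cacaca on the other strand, was in 21.7% of the promoters of genes called higher, 10.6% of those called lower and 16.7% of all. Most of each promoter lies before the start of transcription, and both strands were counted. The count therefore does not measure the UG-rich RNA that TDP-43 recognizes.

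The wider microglial and interferon lists differed mainly in 1 mouse. The mean level of 15 microglial markers was 8.70, 8.80, 10.08 and 8.59 in WT bigenic arrays, against 8.07 to 8.61 in nontransgenic arrays. That of 17 interferon response genes was 3.93, 4.02, 5.42 and 3.38 in WT bigenic arrays, against 3.35 to 3.78. That of 21 genes of activated microglia was 5.79, 5.84, 7.58 and 5.76 in WT bigenic arrays, against 5.37 to 5.78. WT bigenic 3 was the highest of the 4 for all 14 microglial genes and all 17 interferon genes that varied among them. It was also the array farthest from the nontransgenic mean for 166 of the 276 called genes (60.1%), against 39.4% of genes above the lowest value on all arrays.

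By the limma test, 0 of the 15 microglial and 0 of the 17 interferon genes passed, with 7 and 11 higher and none lower at an unadjusted p under 0.05, beside 7.56% higher among all genes, and medians of 0.46 and 0.60, beside 0. Without WT bigenic 4, 4 interferon genes passed, all higher, where 47 of all 12393 genes were higher. WT bigenic 3 makes up more of the group in that fit. Fcgr3 was the only call among the 21 genes of activated microglia, beside 2.23% of all genes. Without WT bigenic 3 the medians were 0.25 for microglia, 0.16 for interferon genes and 0 for activated microglia. Trem2, a receptor of microglia, lay at 3.01, 3.31, 8.05 and 2.60 in WT bigenic arrays and between 2.04 and 2.09 in nontransgenic arrays. All 4 WT bigenic arrays were above all nontransgenic arrays, which were within 0.05 of the lowest value, and the difference of 2.09 ± 0.67 (SE) did not pass with all arrays (limma adjusted p = 0.106). Without WT bigenic 3 it was 0.89 ± 0.09 (limma adjusted p = 4.3e-04). That SE is pooled over the groups, and the nontransgenic arrays had almost no spread near the lowest value. It therefore does not measure the spread among the remaining WT bigenic arrays, at 3.01, 3.31 and 2.60. Cd68, a lysosomal protein of phagocytes, lay at 6.74, 6.57, 10.23 and 6.76 in WT bigenic arrays, against 3.32 to 5.84 in nontransgenic arrays, again without overlap, and its difference of 2.19 ± 0.58 did not pass (limma adjusted p = 0.0560). Of interferon genes, Bst2, which tethers enveloped viruses, lay at 5.27, 5.99, 8.17 and 4.39 in WT bigenic arrays, against 3.20 to 5.36, and Usp18, a brake on interferon signalling, at 3.35, 3.67, 6.34 and 2.11, against 2.10 to 2.28. Neither passed (limma adjusted p = 0.0722 and 0.0692). Trem2, Cd68, Bst2 and Usp18 were named after their values were seen. Gfap, the intermediate filament of astrocytes, lay at 10.93, 11.004, 12.62 and 10.56 in WT bigenic arrays, against 10.18 to 10.72, and did not pass (limma adjusted p = 0.118).

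**Figure D4:**
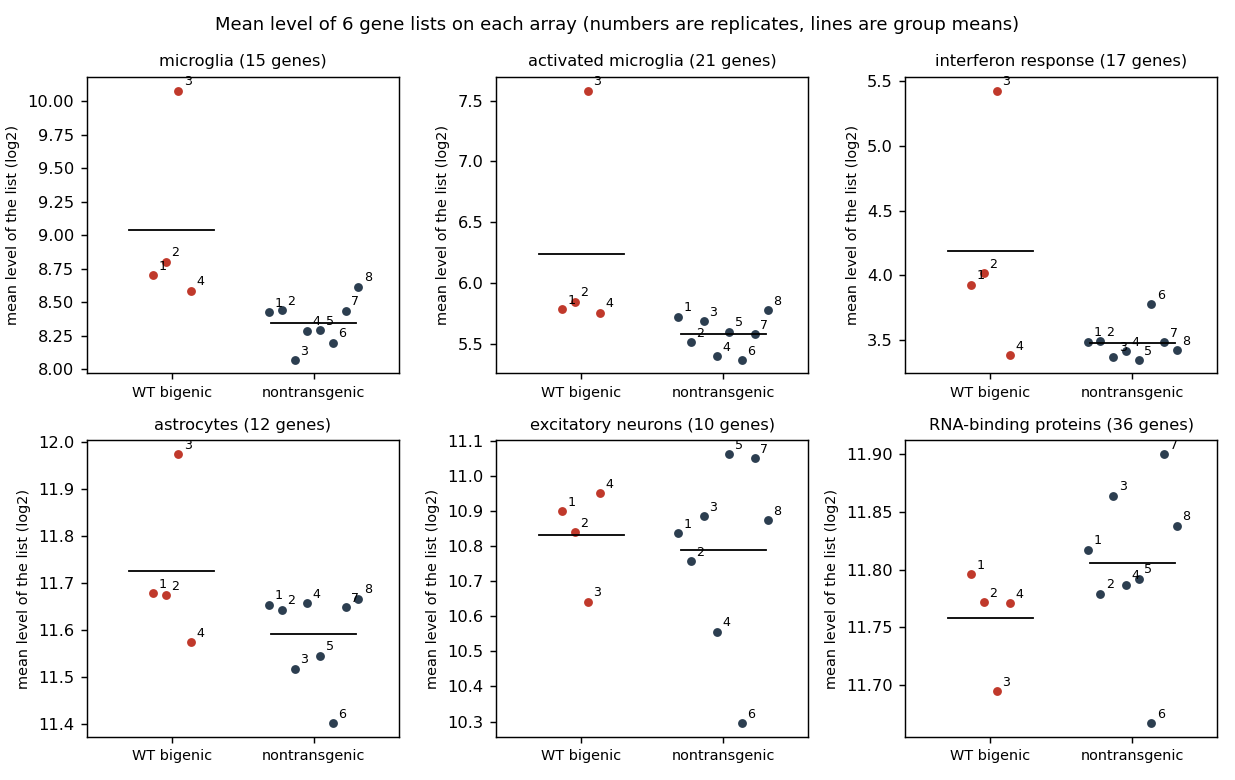
Mean log2 level of 6 gene lists on each WT bigenic and nontransgenic array, with replicate numbers beside the points and lines at the group means. WT bigenic 3 stands above all other arrays for microglia (10.08), activated microglia (7.58) and interferon response (5.42), while the other WT bigenic arrays reach 8.80, 5.84 and 4.02, beside nontransgenic maxima of 8.61, 5.78 and 3.78.

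Outside the immune genes, Id1, an inhibitor of basic helix-loop-helix transcription factors, lay at 7.35, 7.76, 7.98 and 8.23 in WT bigenic arrays, against 6.29, 6.72 and 6.95 in nontransgenic arrays. It rose by 1.11 ± 0.23 (SE, limma adjusted p = 0.0277, and up to 0.0923 without any 1 of the 4 WT bigenic arrays). It was higher than in dNLS bigenic cortex by 1.36 (limma adjusted p = 0.00298). Gadd45g, a stress-inducible gene that is also induced by neuronal activity, lay at 9.07, 8.82, 9.29 and 9.14 in WT bigenic arrays, against 7.60, 8.12 and 8.57 in nontransgenic arrays. It rose by 0.91 ± 0.16 (limma adjusted p = 0.0168, and up to 0.0685 without WT bigenic 1 or 3), and also passed against dNLS monogenic cortex. It was 1 of 21 activity-regulated effector genes to pass, and 0 of 16 activity-regulated transcription factors passed, beside 2.23% of all genes. Fxyd1, phospholemman, which regulates the sodium pump, lay at 9.53, 9.72, 10.48 and 9.76 in WT bigenic arrays, against 8.31, 8.81 and 9.33, and rose by 0.98 ± 0.16 (limma adjusted p = 0.0133). Blvrb, a reductase of biliverdin and flavins, lay at 4.56, 4.86, 6.00 and 5.35, against 3.87, 4.24 and 4.35, and rose by 0.93 ± 0.17 (limma adjusted p = 0.0181). WT bigenic 3 was the highest array for both.

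Some genes of ribosome production and protein turnover also passed. Rpf1, a ribosome production factor, lay at 4.55, 5.20, 5.35 and 5.05 in WT bigenic arrays, against 3.40 to 4.62 in nontransgenic arrays. WT bigenic 1 overlapped the highest nontransgenic array, and Rpf1 rose by 1.00 ± 0.17 (SE, limma adjusted p = 0.0133). Nop14, which takes part in making the small ribosomal subunit, differed by 0.71 ± 0.18 (limma adjusted p = 0.0451). Of 41 ribosomal protein genes, 0 passed, and their median was 0.07, beside 0 for all genes. At an unadjusted limma p under 0.05, 9 of the 41 were higher and 0 lower, beside 7.56% higher among all genes. The proteasome subunits Psmd13 (0.28 ± 0.06) and Psmc3 (0.16 ± 0.04) were higher and Psma5 (-0.41 ± 0.10) lower. These were 3 of 35 proteasome genes in all, beside 2.23% of all genes. At an unadjusted limma p under 0.05, 11 of the 35 were higher and 2 lower, and the median was 0.13. Psmg3, a proteasome assembly chaperone outside that list, differed by 0.77 ± 0.16 (limma adjusted p = 0.0260). Ubr2, a ubiquitin ligase, differed by 0.65 ± 0.12 (limma adjusted p = 0.0181) and Fbxo2, the substrate receptor of a ligase for glycoproteins, by 0.71 ± 0.15 (limma adjusted p = 0.0289). Apart from Rpf1 these genes each lost their call in 3 to 9 of the 12 fits that left out 1 array, always including WT bigenic 1 and 3. Of 71 oxidative phosphorylation genes, Cycs (cytochrome c, -0.42 ± 0.08) and Cox6a1 (-0.18 ± 0.05) were lower and Uqcrq (0.25 ± 0.06) higher. That is 4.23% of the list, beside 2.23% of all genes, with limma adjusted p of 0.0181, 0.0445 and 0.0316. Cycs, Cox6a1 and Uqcrq lost their calls in 1, 9 and 5 of the 12 fits that left out 1 array. A dimmer probe set of Cycs was also lower (-0.24) and another gave 0.09 without passing. The largest other increases among called genes were Tex261 (1.14 ± 0.27), Fkbpl (0.89), Eps8l3 (0.77) and Nol3 (0.67), with limma adjusted p between 0.0154 and 0.0491. In order, they lost their calls in 5, 4, 1 and 9 of the 12 fits that left out 1 array. Against the line WT12 controls alone, Tex261 differed by 0.60 (limma adjusted p = 0.175) and Eps8l3 by 0.47 (limma adjusted p = 0.223). Cycs (-0.55), Cox6a1 (-0.29), Psmc3 (0.23) and Psmg3 (0.66) passed there, with limma adjusted p between 0.0351 and 0.0477.

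WT and dNLS bigenic cortex, both with tTA, were also compared directly, on the same WT bigenic arrays. There, 1334 genes (10.8%) differed, 561 higher (4.53%) and 773 lower (6.24%) in WT bigenic cortex, with 817 to 1301 calls when 1 array was left out, the fewest without WT bigenic 1. Smoc2 and Myh7 were higher in WT than in dNLS bigenic cortex, by 1.64 ± 0.33 and 2.16 ± 0.53 (SE, limma adjusted p = 0.00337 and 0.0124). Smoc2 lay between 5.10 and 6.38 in WT bigenic, 3.87 and 4.71 in dNLS bigenic, and 6.40 and 7.92 in nontransgenic arrays. Magi1, a synaptic scaffold chosen here after its values were seen, lay at 9.58, 9.65, 9.56 and 9.69 in WT bigenic arrays, above both dNLS bigenic cortex (by 1.19, limma adjusted p = 3.4e-06) and nontransgenic cortex (by 0.48, limma adjusted p = 0.0219). In calcium and cAMP signalling, 11 of 25 genes were higher in WT than in dNLS bigenic cortex, while 1 of the 25, Calb1, differed between WT bigenic and nontransgenic cortex.

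**Figure D5:**
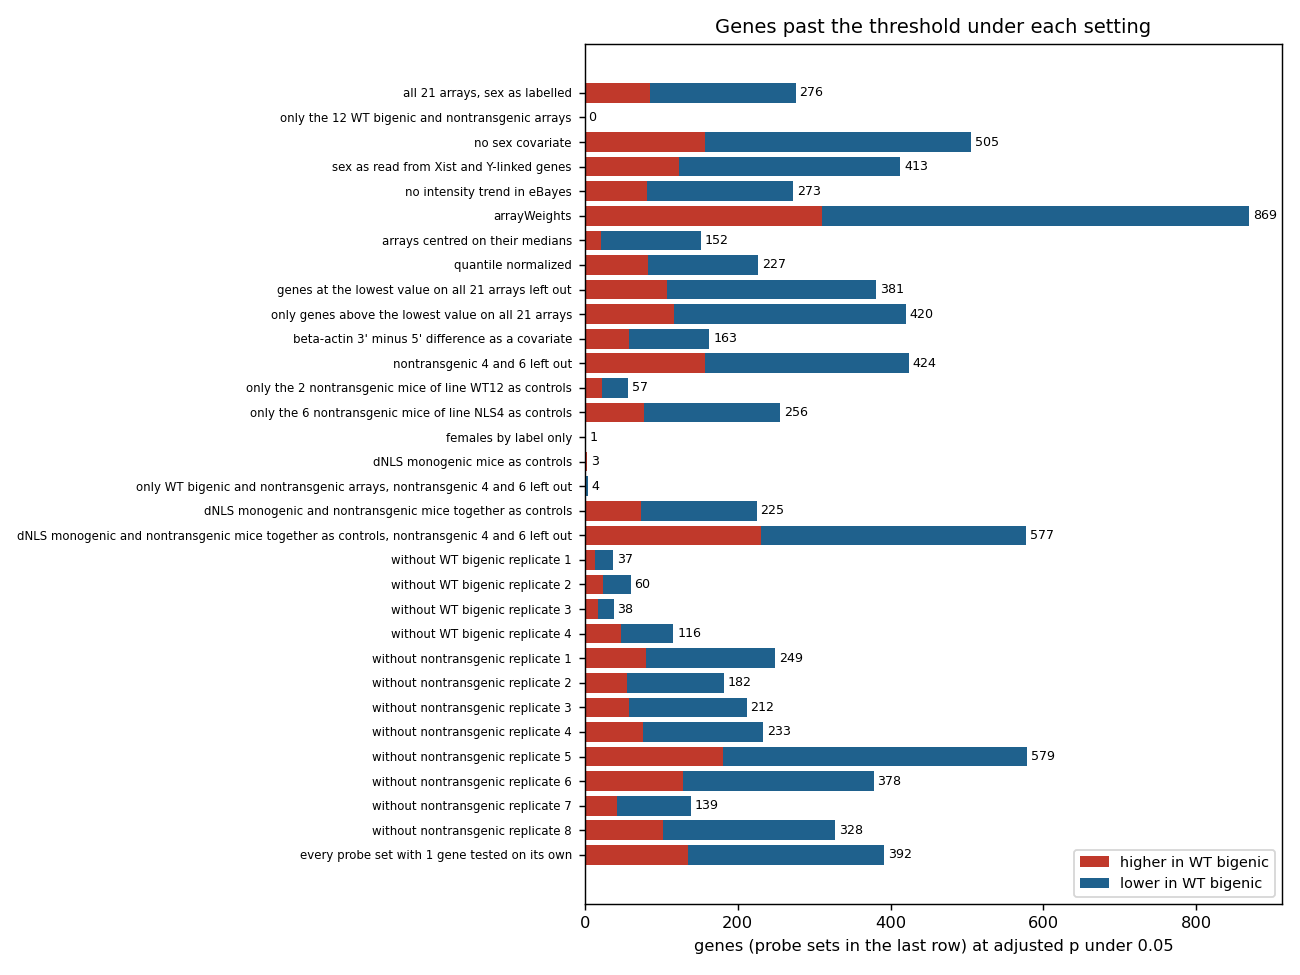
Number of genes past the threshold, WT bigenic minus nontransgenic, under each setting of the fit, split into higher and lower. The bars run from 0 for the 12 arrays alone to 869 with array weights, beside 276 for the fit across 21 arrays, and are shortest among the single-array omissions when WT bigenic 1 (37) or 3 (38) is left out.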

How the data were processed

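RNA from whole cortex of single mice was measured on Affymetrix MOE430A 2.0 arrays. Per the labels' protocols, TRIzol RNA with an integrity number of at least 7 was used, 3 µg per mouse, amplified from the poly(A) end and biotin-labelled, so short or degraded RNA lowers probe sets far from the 3' end. The authors deposited 1 table of log2 values, already normalized (log base inferred from the range of 2.04 to 15.1). Partek is named in the submitters' processing notes, with no version or role, and the normalization method is not given in the sources used here. Probe sets naming 1 gene (20380 of 22690) were reduced to 12393 genes by the highest mean over all arrays. limma 3.58.1 (R 4.3.3) fitted 4 groups and labelled sex over 21 arrays, with intensity-trended eBayes and Benjamini-Hochberg adjustment over all genes (adjusted p under 0.05). SE values come from this fit. Single control values had exact permutation tests. The scripts were tested on simulated data. Named genes were the 15 largest increases and decreases among the calls, up to 4 calls per list, Tardbp, sex genes and the presumed tTA locus. The members and lists were chosen with earlier results of these data known. The labels number no litters or batches, and the number of arrays limits precision.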

Additional observations from a re-analysis of the deposited data

Results flagged for a closer look

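Of 116 groups of 4 or 8 arrays checked for a single distant array, 10 had one, where chance alone gives about 1 in 20. Lipg was 5.23 in WT bigenic 3, far below the other WT bigenic arrays at 6.75 to 6.84. Ptprn2 was 2.49 in WT bigenic 4, above the others at 2.24. Among nontransgenic arrays, Cycs was lowest in replicate 5 at 12.25, Nop14 in replicate 6 at 7.09 and Fcgr1 in replicate 6 at 3.22, and Eps8l3 was highest in replicate 8 at 2.94. The beta-actin 3' minus 5' difference was highest among WT bigenic arrays in replicate 1, at 1.43. The Gapdh 3' minus 5' difference was highest in nontransgenic 6, at 5.04, and the Gapdh 3' minus middle difference was highest in WT bigenic 4, at 0.475, and in nontransgenic 6, at 1.82.

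Probe sets left out of the gene comparison also gave calls. Of 691 that name several genes, 22 passed (3.18%), 8 higher and 14 lower in WT bigenic cortex. Of 1555 that name no gene, 17 passed (1.09%), 8 higher and 9 lower.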

How the results depend on the processing

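The count of 276 genes (85 higher and 191 lower in WT bigenic cortex) depended on the fit. With the 12 arrays alone it was 0 (0 higher and 0 lower, with 1547 at an unadjusted p under 0.05 by limma), and with females by label alone 1 (0 higher and 1 lower). Without a sex covariate it was 505 (158 and 347), and with sex as read 413 (123 and 290). It was 869 with array weights (310 and 559), 152 with arrays centred on their medians (22 and 130), 420 over genes above the lowest value on all arrays (117 and 303), and 163 with the beta-actin covariate (58 and 105). Without nontransgenic 4 and 6 it was 424 (158 and 266), with the line WT12 controls 57 (23 and 34), and with dNLS monogenic controls 3 (3 and 0). Testing every probe set gave 135 higher. Chosen after seeing the data, the 12 arrays without nontransgenic 4 and 6 gave 4 (1 and 3), and monogenic and nontransgenic controls together without those 2 gave 577 (231 and 346). Leaving out 1 array gave 37 to 579 calls (14 to 181 higher and 21 to 398 lower). The gene lists without each WT bigenic array were also added after seeing the data. Between WT and dNLS bigenic cortex, array weights gave 3108 calls, the covariate 2437 and females alone 175, and leaving out 1 array 817 to 1301. The beta-actin difference without nontransgenic 4 and 6 was -0.70. The cause of these shifts was not tested. The 51 named genes past the threshold kept their direction in every fit that tested them, with 49 tested among genes above the lowest value on all arrays. No paired analysis was possible because the labels carry no shared replicate numbers.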

Other observations

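Gene families put together after the values were seen are given as counts, beside 1.54% lower and 0.686% higher among all genes. Of 47 cadherins and protocadherins, 4 were lower past the threshold, Pcdh8, Pcdh18, Pcdh20 and Cdh9, and 19 of the 47 were at the lowest value on all arrays. Of 15 contactins and leucine-rich synaptic adhesion genes, 4 were lower, Cntn6, Lrrtm1, Lrrn1 and Cadm1. Of 33 ribosome biogenesis genes, 6 were higher, Rpf1, Nop14, Utp11, Rrp7a, Rrp1 and Emg1. Of 15 TRP channel genes, Trpc6 and Trpm7 were lower.

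Another 35 probe sets read 24 of the 51 called genes that the report names. Of these sets, 20 pointed the same way (5 past the threshold) and 15 the other way (0 past it in limma).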
